A study of Mus musculus with 8 samples.

Results

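The mature forms of miR-146, miR-155 and miR-21, miRNAs known for their induction during inflammation, were examined in small RNA from mouse testis. Members were all entries of the miRNA class named miR-146a, miR-146b, miR-155 or miR-21, whichever the arm, and they numbered 6 of the 20558 small RNAs listed and 6 of the 576 entries with a mature miRNA name. The 6 entries were miR-146a-5p, miR-146b-5p, miR-146b-3p, miR-155-5p, miR-21-5p and miR-21-3p. The 3p arms of miR-146a and miR-155 were not analysed here. A total of 4 members, the 5p arms, passed the filter on low counts and were tested, whereas miR-21-3p and miR-146b-3p did not pass it.

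The study asked whether RNA of the male germ line can carry a metabolic disorder induced by diet to the next generation. Testis small RNA was sequenced in 8 adult C57Bl/6 males, 4 kept on a standard diet (SD mice M1N, M2N, TN1 and TN2) and 4 fed a Western-like diet rich in sucrose and butter (WD mice M1W, M2W, M3W and M5W). The mice were divided between the diets at 3 weeks of age, although the labels place the start at 4 weeks, and were mated at 4 months. The labels word the high-fat diet for all 8 mice, so the groups were taken from the sample titles, which name each mouse as control or experimental. Each library came from the testis RNA of 1 animal and mixes germ cells, Sertoli and Leydig cells, vessels and blood. In such bulk RNA a change in the number of cells of a type and a change in the amount of RNA in each cell cannot be told apart.

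Total counts were 3248708 in M1N, 3253798 in M2N, 3101032 in TN1 and 2064562 in TN2. They were 2931793 in M1W, 2290920 in M2W, 2159625 in M3W and 3092399 in M5W. Levels are given as CPM, counts divided by the TMM-normalised library size and expressed on the usual CPM scale. The smallest level that these totals can show, set at 3 counts, lay between 0.922 and 1.45 CPM when scaled to the column totals, without TMM factors. This floor and the intervals below cover counting error only, because PCR copies of a molecule are not independent. The first principal component of the 16955 small RNAs that passed the filter held 46.6% of the variance. On it M1N lay at -75.9 and M2N at -36.3, while the other 6 mice lay between 4.73 and 35.5. Since M1N and M2N stood apart from TN1 and TN2, the differences of the tested members, and of the marker lists as a whole with some of their miRNAs, are also given against either pair alone.

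The labelled tissue was checked against miRNAs of spermatogenic cells. Of 30 listed arms of such miRNAs, from the miR-34b, miR-34c and miR-449 families and the X-linked clusters active in testis, 29 passed the filter, and their summed level lay between 18323 and 23719 CPM in the 8 mice. The most abundant of them was miR-34c-5p, with 7814 ± 720.3 CPM (standard deviation, n = 4) in SD mice and 8252 ± 1690.2 CPM (standard deviation, n = 4) in WD mice. Germ cell miRNAs were thus abundant in every library.

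Members of these families act at different points of inflammatory signalling. miR-146a and miR-146b are transcribed in response to NF-κB and repress adaptor and kinase proteins of the Toll-like receptor pathway, which closes a negative feedback loop, whereas miR-155 is cut from a non-coding transcript that macrophages and lymphocytes induce on activation and generally favours the inflammatory response. miR-21 is expressed in many cell types, is raised by inflammatory and growth signals, and in mouse testis is known for its role in spermatogonial stem cells.

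The sequences are shown because miRNAs recognise their targets mainly through the seed, bases 2 to 8, and because sequence identity decides which members could exchange reads. They were taken from RefSeq (table of GRCm38.p6), where 6 of the 6 members were matched, and the seed is in capitals.
mmu-miR-146a-5p: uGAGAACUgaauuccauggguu
mmu-miR-146b-5p: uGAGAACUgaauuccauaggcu
mmu-miR-155-5p: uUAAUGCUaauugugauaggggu
mmu-miR-21-5p: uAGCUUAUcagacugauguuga
mmu-miR-21-3p: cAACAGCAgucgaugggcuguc
mmu-miR-146b-3p: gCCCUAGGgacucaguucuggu
miR-146a-5p and miR-146b-5p shared the seed GAGAACU, and no other members shared one. RefSeq lists miR-21c with the seed of miR-21-5p, and it was not analysed here. Over their 22 bases the miR-146 pair differed at 2 positions, G18A and U21C, where the base of miR-146a-5p comes first and positions are counted from the 5′ end. The authors allowed 2 mismatches over a read and did not state how reads with several matches were counted. A read of either miR-146 member can therefore have been counted on the other, so their separate values are uncertain and their sum is also given.

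Positions come from the NCBIM37 assembly (mm9) with the GENCODE M1 annotation. The precursor of miR-146a lies at chr11:43187899-43187963 on the minus strand, outside any other annotated gene of that strand, and the mature 5p arm at chr11:43187937-43187958. The miR-146b precursor lies at chr19:46417252-46417360 on the plus strand within the protein-coding gene Tmem180, in an intron, since no annotated exon overlaps it, and its 5p arm lies at chr19:46417280-46417301. That of miR-155 lies at chr16:84714385-84714449 on the plus strand in an exon of its non-coding host gene, with the 5p arm at chr16:84714388-84714410. The miR-21 precursor lies at chr11:86397569-86397660 on the minus strand in an untranslated exon region of Vmp1, with the 5p arm at chr11:86397622-86397643 and the 3p arm at chr11:86397584-86397605. The precursors thus lie in different surroundings, with no other gene of its strand around miR-146a, an intron around miR-146b, a non-coding exon around miR-155 and an untranslated region around miR-21.

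The members spanned a wide range of levels. miR-21-5p ranked 29 among the 576 mature miRNAs by mean CPM and carried 97.4% of all counts on the 6 members. It was followed at rank 272 by miR-146a-5p, at 318 by miR-146b-5p, at 355 by miR-155-5p, at 400 by miR-21-3p and at 500 by miR-146b-3p. The mean level of miR-21-5p was 91.4 times that of miR-146a-5p, which in turn was 1.57 times that of miR-146b-5p. Mature members are 22 or 23 bases long, so no correction for length was made. Together the 6 members took 0.814% of the mature miRNA counts.

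The neighbours in this order are given to place the members, and the closeness of their means follows from the ranking. miR-21-5p, at 809 ± 157 CPM over 8 mice, stood between miR-463-5p at 817 ± 219 CPM and miR-107-3p at 792 ± 190.0 CPM (standard deviation, n = 8). miR-146a-5p, at 8.85 ± 4.06 CPM, stood between miR-466p-3p at 9.03 ± 2.34 CPM and miR-181d-5p at 8.80 ± 2.92 CPM (standard deviation, n = 8). The other members were placed in the same way, miR-146b-5p between miR-337-3p and miR-615-3p, miR-155-5p between miR-33-5p and miR-582-5p, miR-21-3p between miR-3968 and miR-195-3p, and miR-146b-3p between miR-455-5p and miR-669l-3p.

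The feedback miRNA miR-146a-5p had 15 counts in M1N, 22 in M2N, 24 in TN1 and 11 in TN2, or 5.14, 7.01, 7.56 and 5.09 CPM. In WD mice it had 31 counts in M1W, 39 in M2W, 15 in M3W and 38 in M5W, or 10.2, 17.1, 6.91 and 11.8 CPM. M1W, M2W and M5W lay above every SD mouse, and M3W lay within the SD range, below M2N and TN1. Scaled to the column total, the count of M2W had a 95% Clopper-Pearson interval of 12.1 to 23.3 CPM, and that of M3W an interval of 3.89 to 11.5 CPM. These are the highest and the lowest WD mouse, a choice that favours a gap, and their intervals did not overlap. The SD mice had 6.20 ± 1.27 CPM and the WD mice 11.5 ± 4.25 CPM (standard deviation, n = 4 each).

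The log2 fold change of miR-146a-5p, WD against SD, was 0.87 (standard error 0.29, 95% interval 0.25 to 1.495), a fold of 1.83. edgeR's quasi-likelihood test, two-sided, gave an unadjusted p of 0.00948 and, after Benjamini-Hochberg adjustment over the 16955 small RNAs tested, an adjusted p of 0.318. That adjusted p was also the smallest among all small RNAs tested, but it was shared and marks no first place. miR-125b-2-3p and miR-449a-5p had it too, with unadjusted p values of 0.0156 and 0.0211 in the same test. By unadjusted p miR-146a-5p ranked 20 among the 418 entries of the miRNA class tested. An exact permutation test over all 70 assignments of the mice, two-sided and on log2 CPM, gave p = 0.0857, where 0.0286 is the smallest value possible. P-values measure the spread between mice throughout. miR-146a-5p is among the miRNAs that the study selected on these same mice, so its difference is no independent evidence of its direction.

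Against M1N and M2N alone the log2 fold change of miR-146a-5p was 0.91 (standard error 0.36), and against TN1 and TN2 alone it was 0.82 (standard error 0.35). Its mean level in the pairs of SD mice was 6.08 and 6.33 CPM, so the gap seen between these pairs on the first principal component was not seen in this miRNA. The adjusted p in edgeR's quasi-likelihood test (Benjamini-Hochberg) was 0.0738 against M1N and M2N and 0.999 against TN1 and TN2, within a range of 0.0703 to 0.999 over the alternatives tried.

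miR-146b-5p, the family member with the same seed, had 13 counts in M1N, 11 in M2N, 12 in TN1 and 13 in TN2, or 4.46, 3.51, 3.78 and 6.02 CPM. In WD mice it had 20 counts in M1W, 26 in M2W, 8 in M3W and 18 in M5W, or 6.57, 11.4, 3.69 and 5.60 CPM. M2W was again the highest and M3W the lowest WD mouse, M1W and M2W lay above every SD mouse, and the groups overlapped. Levels averaged 4.44 ± 1.13 CPM in SD mice and 6.82 ± 3.28 CPM in WD mice (standard deviation, n = 4 each). WD against SD, the log2 fold change was 0.63 (standard error 0.35, 95% interval -0.12 to 1.38), a fold of 1.55, with an unadjusted p of 0.0922 and an adjusted p of 0.396 in edgeR's quasi-likelihood test (Benjamini-Hochberg). The exact permutation test, two-sided, gave p = 0.257. Without M2W the log2 fold change was 0.31, a fold of 1.24. It was 0.76 (standard error 0.43) against M1N and M2N alone and 0.51 (standard error 0.42) against TN1 and TN2 alone.

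Summed over both miR-146 members, the level was 9.60 CPM in M1N, 10.5 in M2N, 11.3 in TN1 and 11.1 in TN2, and 16.8 CPM in M1W, 28.5 in M2W, 10.6 in M3W and 17.4 in M5W. The sum thus placed M1W, M2W and M5W above every SD mouse and M3W between the SD mice, as for miR-146a-5p alone. miR-146a-5p took 53.6%, 66.7%, 66.7% and 45.8% of the summed counts in M1N, M2N, TN1 and TN2, and 60.8%, 60.0%, 65.2% and 67.9% in M1W, M2W, M3W and M5W. The balance between the members overlapped between the diets and was not tested.

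miR-155-5p, which acts in activated macrophages and lymphocytes, was close to the limit of the depth. It had 5 counts in M1N, 10 in M2N, 10 in TN1 and 11 in TN2, or 1.71, 3.19, 3.15 and 5.09 CPM. In WD mice it had 12 counts in M1W, 13 in M2W, 10 in M3W and 11 in M5W, or 3.94, 5.70, 4.61 and 3.42 CPM. M1N was the lowest mouse, TN2 was the highest SD mouse and exceeded M1W, M3W and M5W, and M2W alone lay above every SD mouse. SD mice averaged 3.29 ± 1.39 CPM and WD mice 4.42 ± 0.983 CPM (standard deviation, n = 4 each). The log2 fold change of 0.44 (standard error 0.36, 95% interval -0.33 to 1.21) came with an unadjusted p of 0.246 and an adjusted p of 0.550 in edgeR's quasi-likelihood test (Benjamini-Hochberg), and the exact permutation test, two-sided, gave p = 0.229.

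For miR-155-5p the choice of control mice moved the value. It was 0.80 on the log2 scale (standard error 0.46) against M1N and M2N, which averaged 2.45 CPM, and 0.12 (standard error 0.41) against TN1 and TN2, which averaged 4.12 CPM. The difference between these was not tested. Between all 4 WD and all 4 SD mice a difference was not detectable in miR-155-5p at this depth.

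miR-21-5p, the abundant member, had 2423 counts in M1N, 2409 in M2N, 1768 in TN1 and 1614 in TN2, or 830.4, 768, 557 and 748 CPM. In WD mice it had 2592 counts in M1W, 1918 in M2W, 1640 in M3W and 3608 in M5W, or 852, 841, 756 and 1122 CPM. M5W was the highest and TN1 the lowest mouse, M1W, M2W and M5W lay above every SD mouse, and M3W lay within the SD range. The means were 726 ± 118 CPM in SD mice and 893 ± 159 CPM in WD mice (standard deviation, n = 4 each). For miR-21-5p the log2 fold change was 0.30 (standard error 0.18, 95% interval -0.08 to 0.68), a fold of 1.23, with an unadjusted p of 0.116 and an adjusted p of 0.419 in edgeR's quasi-likelihood test (Benjamini-Hochberg), and the exact permutation test, two-sided, gave p = 0.114. The upper bound of 0.68 limits the size of a rise that these mice allow.

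Against M1N and M2N alone, which averaged 799 CPM, the log2 fold change of miR-21-5p was 0.16 (standard error 0.20), and against TN1 and TN2, which averaged 652 CPM, it was 0.45 (standard error 0.17). Without M5W it was 0.17. The order of the mice in miR-21-5p, led by M5W, was not that of the miR-146 members, led by M2W.

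**Figure D1:**
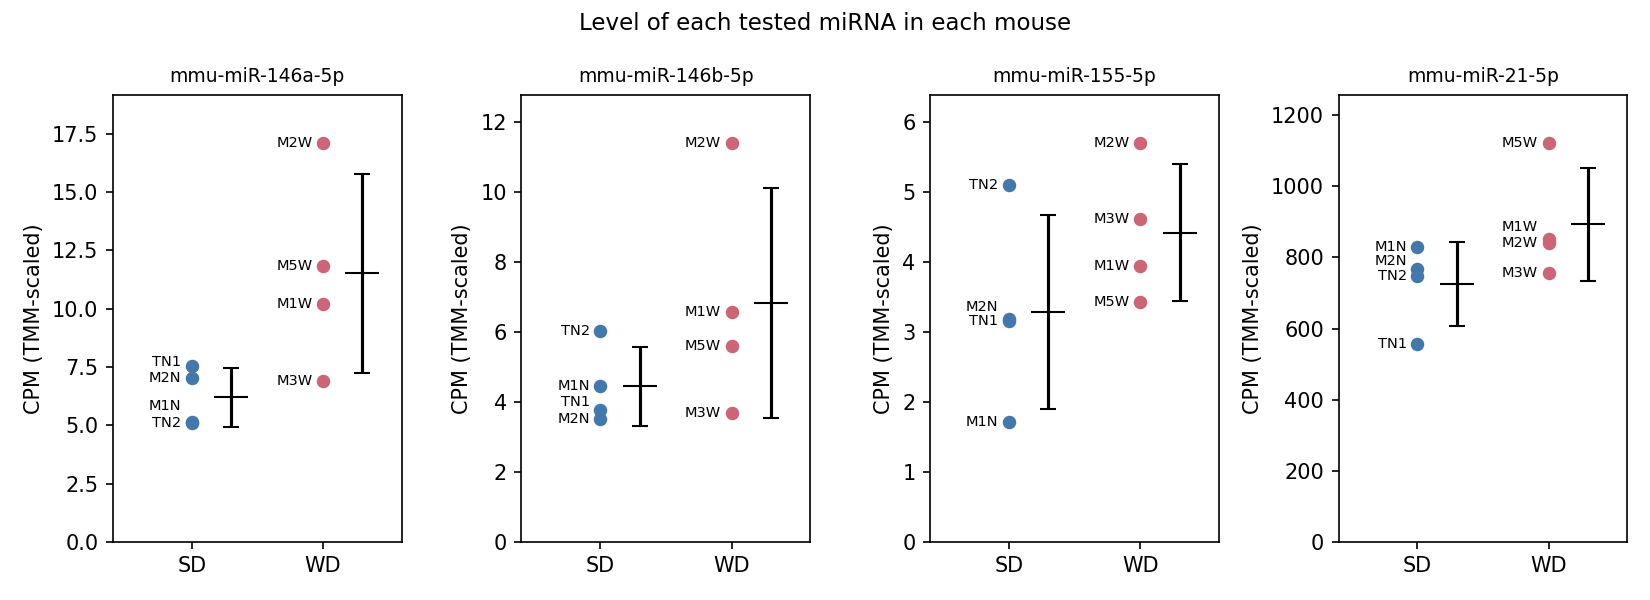
Level of the 4 tested members in each mouse, in TMM-scaled CPM on a linear axis from 0 that differs between panels, with SD mice on the left and WD mice on the right of each panel. Points are mice and the bars beside them give the mean ± standard deviation (n = 4). In miR-146a-5p the SD mice lie between 5.09 and 7.56 CPM and M3W, at 6.91 CPM, lies among them.

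**Figure D2:**
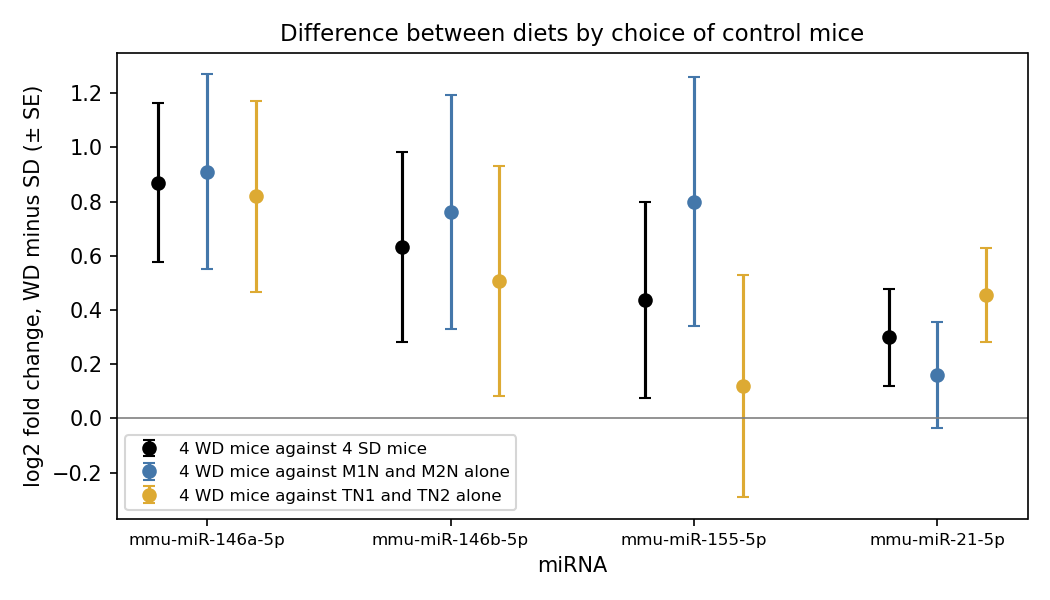
Log2 fold change of WD against SD mice (vertical axis, points with standard errors) for the 4 tested members (horizontal axis), against all 4 SD mice, M1N and M2N alone, or TN1 and TN2 alone. The 3 estimates lie between 0.82 and 0.91 for miR-146a-5p and between 0.12 and 0.80 for miR-155-5p.

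The precision of these values differed with the level. The counting error expected from the mean count was 2.11% of the mean for miR-21-5p, 20.3% for miR-146a-5p, 25.7% for miR-146b-5p and 31.2% for miR-155-5p. The spread between mice of a group, as chi-square per degree of freedom against counting error alone, was 69.6 for miR-21-5p, 2.14 for miR-146a-5p, 2.20 for miR-146b-5p and 1.04 for miR-155-5p. This ratio grows with the mean count, so it does not compare the members with each other. Relative to the mean, the standard deviation between mice was 16.2% in SD and 17.8% in WD mice for miR-21-5p, 20.5% and 37.0% for miR-146a-5p, 25.4% and 48.2% for miR-146b-5p, and 42.2% and 22.2% for miR-155-5p.

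The rarer arms were near or at the floor. miR-21-3p, the passenger arm of the miR-21 precursor, had between 3 and 9 counts in SD mice and between 4 and 11 in WD mice, or 2.07 ± 0.905 and 3.18 ± 1.27 CPM (standard deviation, n = 4 each). With no filter on low counts its log2 fold change was 0.64 (standard error 0.45, 95% interval -0.31 to 1.59). miR-146b-3p had between 0 and 5 counts in SD mice and between 1 and 5 in WD mice, and the log2 fold change was -0.03 (standard error 0.75) with no filter. Its mean was 1.65 CPM in the first pair of SD mice, M1N and M2N, 0.158 CPM in TN1 and TN2 and 0.926 CPM in WD mice, so that the WD mean lay between those of the pairs. The count of 0 was that of TN2, where the floor of 3 counts corresponds to 1.45 CPM on the column total, without the TMM factor.

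Over all mice miR-21-5p had 315 times the counts of miR-21-3p, and miR-146b-5p had 5.76 times those of miR-146b-3p. The log2 ratio of the miR-21 arms, with 0.5 counts added to each, was 8.43 ± 0.84 in SD mice and 8.11 ± 0.50 in WD mice, and that of the miR-146b arms was 2.54 ± 1.72 and 2.74 ± 1.43 (standard deviation, n = 4 each). The 5p arm was the main product of both precursors on either diet. The ratios were not tested, because the 3p arms had fewer than 10 counts in some mice.

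The table also lists the miR-21 precursor, which is not a member. It had 17 counts in M1N, 21 in M2N, 20 in TN1 and 14 in TN2, and 20 in M1W, 17 in M2W, 23 in M3W and 27 in M5W. Levels were 6.33 ± 0.371 CPM in SD mice and 8.26 ± 1.73 CPM in WD mice (standard deviation, n = 4 each), with M1W alone among the WD mice inside the SD range. For the precursor edgeR's quasi-likelihood test gave a log2 fold change of 0.37 (standard error 0.26) and a Benjamini-Hochberg adjusted p of 0.477, and the exact permutation test, two-sided, gave p = 0.0571. M3W, the lowest WD mouse in mature miR-21-5p, was the highest in the precursor.

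At an adjusted p under 0.05 in edgeR's quasi-likelihood test (Benjamini-Hochberg over all small RNAs), 0 of the 4 tested members differed between the diets, and so did 0 of the 16955 small RNAs tested (0%). DESeq2 and limma-voom likewise gave 0. At an unadjusted p under 0.05 there were 2474 small RNAs in edgeR and 2195 in DESeq2. Within the miRNA class 69 of 418 entries (16.5%) lay under that limit, and 1 of the 4 members did, miR-146a-5p, in edgeR, DESeq2 and limma-voom alike. A share of 1 in 4 is near this background and is not a result about the families.

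With looser criteria, a fold change of at least 1.5 together with an unadjusted p no higher than 0.1, 33 of 418 entries (7.89%) were higher in WD mice, miR-146a-5p and miR-146b-5p among them, and 30 of 418 (7.18%) were lower, 0 members among them. These 2 members share a seed and possibly reads, so they do not count as separate observations. Against TN1 and TN2 alone and without M2W, miR-146a-5p met the criteria and miR-146b-5p did not. In the class 21 of 418 entries were higher and 28 lower by the criteria against TN1 and TN2 alone. Between all WD and all SD mice the log2 fold change was above 0 in 4 of the 4 tested members and in 219 of the 418 entries (52.4%), with a median of 0.03 over the class and of -0.01 over all small RNAs.

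The pairs of SD mice gave different backgrounds. Against M1N and M2N alone 3624 of 16955 small RNAs (21.4%) passed edgeR's quasi-likelihood test at a Benjamini-Hochberg adjusted p under 0.05, and against TN1 and TN2 alone 12 (0.0708%). In each of these comparisons 0 of the 4 tested members were among them. Both comparisons use the same WD mice. Within the miRNA class the corresponding numbers were 82 of 418 (19.6%) and 8 of 418 (1.91%). The class as a whole also shifted with the pair, with 178 of 418 entries (42.6%) above 0 and a median log2 fold change of -0.13 against M1N and M2N, and 311 (74.4%) above 0 and a median of 0.19 against TN1 and TN2. The values of the 4 tested members, all above 0 against either pair, stand beside these medians, and that of miR-155-5p against TN1 and TN2, 0.12, lay below the median of the class.

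Other miRNAs known to act in Toll-like receptor and NF-κB signalling were taken as a list of 24 arms, of which 15 passed the filter. By the criteria above 4 of the 15 were higher and 0 lower in WD mice, beside 7.89% and 7.18% of the miRNA class, a description with no test, and 0 passed edgeR's quasi-likelihood test at a Benjamini-Hochberg adjusted p under 0.05 in either direction. Fold changes on the log2 scale were above 0 in 6 and below 0 in 9, with a median of -0.01 beside 0.03 for the class. The balance turned with the control mice, with 6 above 0 and 9 below and a median of -0.32 against M1N and M2N, and 13 above and 2 below and a median of 0.32 against TN1 and TN2, where the class medians were -0.13 and 0.19. By the criteria 2 of the 15 were higher and 4 lower against M1N and M2N, beside 67 and 79 of 418 in the class. Against TN1 and TN2 the numbers were 3 and 0, beside 21 and 28 of 418. The most abundant were miR-125b-5p, with 3347 ± 1125 CPM in SD and 2713 ± 1062 CPM in WD mice, and miR-125a-5p, with 682 ± 296 and 463 ± 226 CPM (standard deviation, n = 4 each), both of them also expressed outside inflammation. Single arms turned likewise, the log2 fold change being -0.67 against M1N and M2N and 0.19 against TN1 and TN2 for miR-125b-5p, and -1.02 and 0.12 for miR-125a-5p.

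The arms with the smallest unadjusted p in that list were rare. miR-125b-2-3p, the minor arm of a miR-125b precursor, had 5.12 ± 0.892 CPM on the standard and 8.75 ± 2.06 CPM on the Western-like diet, which is a log2 fold change of 0.75 (standard error 0.27). miR-132-3p, which like miR-146a is induced by Toll-like receptor ligands, had 3.07 ± 0.803 and 5.58 ± 1.93 CPM, a log2 fold change of 0.88 (standard error 0.35). The other arms that met the criteria, named after their values were seen, were miR-9-5p at a log2 fold change of 0.61 and miR-147-5p at 0.64. These 4 arms had mean counts of 27.1 or fewer per mouse. Against M1N and M2N and against TN1 and TN2 in turn, their log2 fold changes were 0.80 and 0.68 for miR-125b-2-3p, 0.64 and 1.21 for miR-132-3p, 0.76 and 0.46 for miR-9-5p, and 0.35 and 1.07 for miR-147-5p. The opposite arms did not rise with them. miR-132-5p, at 9.33 CPM in SD and 7.21 CPM in WD mice, had a log2 fold change of -0.39. That of miR-147-3p, at 29.9 and 29.7 CPM, was -0.01, and that of miR-125b-5p was -0.30. The opposite arm miR-9-3p did not pass the filter.

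The summed level of the inflammatory list was 6470 CPM in M1N, 6108 in M2N, 3703 in TN1 and 3497 in TN2, and 3570 CPM in M1W, 6392 in M2W, 3455 in M3W and 3120 in M5W. M1N, M2N and M2W thus stood high and the other mice low. In miR-146a-5p M2W was also the highest, but M1N and M2N were among the low mice. The summed level rests mostly on miR-125b-5p.

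Lists for the other cell types of the organ were read in the same way. Of 7 leukocyte arms 6 passed the filter, 1 was higher and 1 lower by the criteria (7.89% and 7.18% in the class) and 0 passed the adjusted test in edgeR, with a median log2 fold change of -0.12. Against M1N and M2N 2 were above 0 and 4 below, with a median of -0.55, and against TN1 and TN2 6 of 6 were above 0, with a median of 0.29. The most abundant was miR-342-3p, with 643 ± 246 CPM in SD and 538 ± 193 CPM in WD mice (standard deviation, n = 4 each), followed by miR-223-3p of myeloid cells. miR-142-3p, found in all blood cell lineages, was the higher one, with a log2 fold change of 0.60 (standard error 0.26), and miR-150-5p of mature lymphocytes the lower one, with -0.64 (standard error 0.35). The lower level of miR-150-5p rested on M1N and M2N, against which its log2 fold change was -1.15, whereas against TN1 and TN2 it was 0.15. The direction also turned for miR-342-3p, with -0.64 and 0.27, and for miR-223-3p, with a mean of 251 CPM in the first pair of SD mice and 103 CPM in the other, while miR-142-3p had 0.95 and 0.30. By the criteria 1 of the 6 arms was higher and 3 lower against M1N and M2N, beside 67 and 79 of 418 in the class. Against TN1 and TN2 the numbers were 1 and 0, beside 21 and 28 of 418.

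The summed leukocyte level was 1473 CPM in M1N, 1141 in M2N, 718 in TN1 and 647 in TN2, and 639 CPM in M1W, 1269 in M2W, 808 in M3W and 609 in M5W. The same mice as in the inflammatory list, M1N, M2N and M2W, were the highest, and the group means of both lists differed by less than the spread between mice. The WD means of 4134 CPM in the inflammatory and 831 CPM in the leukocyte list lay below those of M1N and M2N (6289 and 1307 CPM) and above those of TN1 and TN2 (3600.0 and 682 CPM). Without M2W the WD means were 3381 and 685 CPM. Among the markers miR-223-5p, the minor arm, was at 0 counts in some mice of either group.

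Of 12 vascular and stromal arms 11 passed the filter, with 0 by the criteria and 0 adjusted in edgeR and a median log2 fold change of 0.05. The number above 0 was 4 of 11 against M1N and M2N, with a median of -0.17, and 11 of 11 against TN1 and TN2, between 0.15 and 0.71 with a median of 0.30. Their most abundant arm was miR-145-5p of smooth muscle, followed by miR-126-3p of endothelium, and the smallest unadjusted p values were those of miR-143-3p, with a log2 fold change of 0.47 (0.87 against M1N and M2N, 0.15 against TN1 and TN2), and miR-145-3p, with 0.41 (0.17 and 0.71). The direction turned for miR-145-5p, at -0.11 and 0.37 against these pairs, and for miR-126-3p, at -0.25 and 0.30. Against either pair 1 of the 11 arms was higher and 0 lower by the criteria. The class had 67 higher and 79 lower of 418 against M1N and M2N, and 21 and 28 against TN1 and TN2. The summed level of the list was 7328 CPM in M1N, 7353 in M2N, 5664 in TN1 and 5148 in TN2, and 5215 CPM in M1W, 9755 in M2W, 6795 in M3W and 5272 in M5W. M2W, the mouse with the most miR-146a-5p, miR-146b-5p and miR-155-5p, was thus also the highest in stromal miRNAs. The stromal sum averaged 7340.5 CPM in M1N and M2N, 5406 CPM in TN1 and TN2 and 6759 CPM in WD mice, or 5761 CPM in WD mice without M2W.

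The gonadal miRNA miR-202, with its 5p arm the more abundant and both of its arms tested, had a summed level of 3609 CPM in M1N, 4081 in M2N, 4193 in TN1 and 4034 in TN2, and 4187 CPM in M1W, 7021 in M2W, 4331 in M3W and 4487 in M5W. M2W again exceeded every other mouse. Neither arm met the criteria or the adjusted test in edgeR, the log2 fold change being 0.35 for the 5p and -0.34 for the 3p arm, and that of the 3p arm was -0.73 against M1N and M2N and 0.19 against TN1 and TN2. By the criteria 0 of the 2 arms were higher and 1 was lower against M1N and M2N, beside 67 and 79 of 418 in the class. Against TN1 and TN2 the numbers were 0 and 0, beside 21 and 28 of 418.

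Of 3 red cell arms 2 passed the filter, miR-451 and miR-144-3p, with 0 by the criteria and 0 adjusted in edgeR, and the stem miR-486 was not analysed here. The median log2 fold change was -0.10. The summed red cell level, mostly miR-451, was between 40.2 and 151 CPM in SD mice and between 76.5 and 138 CPM in WD mice, with TN1 the highest mouse and M2N the lowest. Both tested arms turned with the control mice, miR-451 having a log2 fold change of 0.91 against M1N and M2N and -0.42 against TN1 and TN2, and miR-144-3p 0.66 and -0.92. By the criteria 1 of the 2 was higher and 0 lower against M1N and M2N, beside 67 and 79 of 418 in the class. Against TN1 and TN2 the numbers were 0 and 1, beside 21 and 28 of 418.

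Among the 29 tested germ cell arms 1 was higher and 1 lower in WD mice by the criteria, beside 7.89% and 7.18% of the class, 0 passed the adjusted test in edgeR, and the median log2 fold change was 0.15, with 0.06 against M1N and M2N and 0.11 against TN1 and TN2. miR-34c-5p and miR-34b-5p were the most abundant, and the smallest unadjusted p values were those of miR-449a-5p, the lower one, with a log2 fold change of -0.62 (standard error 0.24), and miR-883a-5p, with 0.54 (standard error 0.21). The higher one, named after its values were seen, was miR-465a-5p with 0.60 (standard error 0.34). These differences rested mostly on M1N and M2N. Against that pair the log2 fold change was -1.02 for miR-449a-5p, 0.92 for miR-883a-5p and 1.40 for miR-465a-5p, and against TN1 and TN2 it was -0.06, 0.23 and 0.08. By the criteria 6 of the 29 arms were higher and 7 lower against M1N and M2N, beside 67 and 79 of 418 in the class. Against TN1 and TN2 the numbers were 0 and 0, beside 21 and 28 of 418. M2W, at 21260 CPM, lay within the range of the other mice in the summed germ cell level. Some arms of each list passed the edgeR test (adjusted p under 0.05) against M1N and M2N alone. They numbered 1 of 15 in the inflammatory, 3 of 6 in the leukocyte and 1 of 2 in the red cell list. In the stromal, germ cell and miR-202 lists they numbered 1 of 11, 9 of 29 and 1 of 2. The miRNA class had 82 of 418 (19.6%) there, and the lists were not tested against that share. Against TN1 and TN2 alone 0 passed in each list, beside 8 of 418 (1.91%) in the class.

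The share of all counts on the miRNA class was 12.7% in M2W and between 9.23% and 10.7% in the other 7 mice. M2W, the mouse with the highest miR-146 levels, was thus the highest in this share and in the stromal and miR-202 sums, but not in the leukocyte sum, where M1N was higher, nor in the red cell sum, where TN1 was. M1N and M2N, next to M2W in the stromal sum, were among the low mice in summed miR-146. The part of these markers in the miR-146 values was not tested. Without M2W the log2 fold change of miR-146a-5p was 0.64, with M1W and M5W still above every SD mouse.

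**Figure D3:**
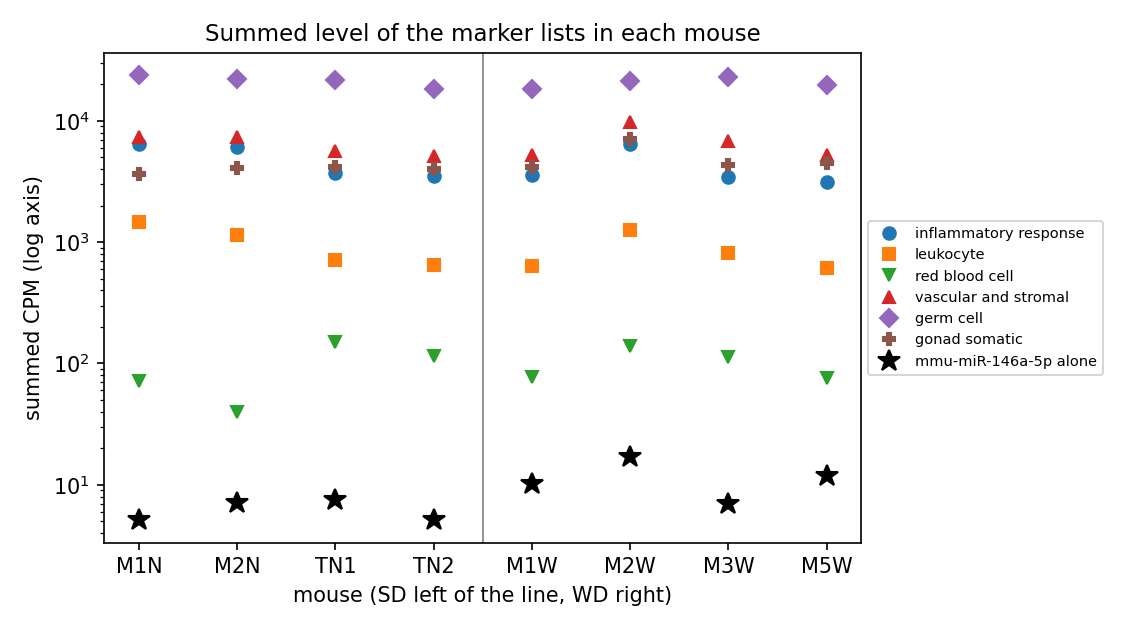
Summed level of the 6 marker lists and, as stars, the level of miR-146a-5p alone in each of the 8 mice (horizontal axis), in TMM-scaled CPM on a log axis. Each symbol is 1 mouse and no error is drawn. M2W is at 9755 CPM in the vascular and stromal list and at 17.1 CPM in miR-146a-5p, the highest mouse in both.

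The miRNAs whose pattern over the 8 mice was most like that of a member were found by the root mean square difference of centred log2 CPM, as a description with no test. They were chosen on these same mice, diet difference included. A shared order of mice or a shared direction therefore follows from the choice and is no separate evidence. Nearest to miR-146a-5p of 209 candidates with a mean count of 50 or more were miR-338-3p, at a difference of 0.20, miR-26b-5p at 0.22, miR-471-3p at 0.30, miR-27a-3p at 0.31 and miR-221-3p at 0.32, where the median candidate was at 0.58. miR-338-3p had 17.4 ± 1.30 CPM in SD mice and 31.2 ± 10.3 CPM in WD mice (standard deviation, n = 4 each). Its values were 16.8, 17.2, 19.2 and 16.2 CPM in M1N, M2N, TN1 and TN2 and 25.6, 46.5, 24.9 and 27.7 CPM in M1W, M2W, M3W and M5W. As in miR-146a-5p M2W was the highest and M3W the lowest WD mouse, but in miR-338-3p the groups did not overlap. How many other miRNAs separated the groups was not counted. In edgeR's quasi-likelihood test 69 of 418 class entries (16.5%) had an unadjusted p under 0.05. The log2 fold change of miR-338-3p was 0.86 against M1N and M2N and 0.79 against TN1 and TN2.

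The nearest to miR-146b-5p were miR-423-5p at 0.25, miR-22-5p at 0.27 and miR-27a-3p at 0.28, so miR-27a-3p was near both miR-146 members. Those nearest to miR-155-5p were miR-143-3p of the stromal list at 0.18, miR-200a-3p at 0.22 and miR-30c-5p at 0.23. miR-143-3p had 165 CPM in M1N, the lowest mouse there as in miR-155-5p, and 610.0 CPM in M2W, the highest in both. For miR-21-5p they were miR-93-5p at 0.21, miR-742-3p at 0.21 and miR-130b-3p at 0.23, with a median candidate at 0.43.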

How the data were processed

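The counts had been made by the authors from SOLiD reads, which they cut where the adaptor began (otherwise after 31 bases), mapped to the mm9 genome using Bowtie with up to 2 mismatches, and named from miRBase (release 18), Rfam and a non-coding RNA database. What was deposited are raw read counts, 1 column for each mouse. The submitters' processing notes also name DESeq, and versions are not given in the sources used here. The whole table was fitted here in edgeR 4.0.16 under R 4.3.3, with TMM factors, column totals as library sizes, filterByExpr (minimum count 10, minimum total 15) and the two-sided quasi-likelihood test of diet, without covariates, and Benjamini-Hochberg adjustment over all small RNAs tested. Alternatives were run in DESeq2 1.42.0 and limma 3.58.1. Permutation tests and intervals used scipy 1.17.1, and figures matplotlib 3.10.9. Log2 CPM and arm ratios used a prior count of 0.5.

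Members and marker lists were chosen with earlier results of these data known. Beside the members, the miRNAs named by rule were other entries of their precursors, miRNAs sharing a seed, the 2 most abundant and the 2 of smallest unadjusted p in each list, the 3 (5 for miR-146a-5p) nearest in pattern and the neighbours in level. Outside this rule miR-223-5p was also named, and miR-9-5p, miR-147-5p and miR-465a-5p were named after their values were seen. The opposite arms miR-132-5p, miR-147-3p and miR-9-3p were likewise named after their values were seen. Lists were inflammatory response, leukocyte, red blood cell, vascular and stromal, germ cell and gonad somatic. No library appeared to be entered again under another name, as the chi-square per degree of freedom lay between 2.56 and 24.4 over 28 pairs of mice.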

Additional observations from a re-analysis of the deposited data

Results flagged for a closer look

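A sample far from the other 3 of its group was found in 3 of the 34 groups of values examined with Dixon's test, where chance gives about 1 in 20, or 1.7 groups. TN2 had a total count of 2064562, against 3101032 to 3253798 in the other SD mice. M2W had a summed level of 6392 CPM in the inflammatory response list, against 3120 to 3570 CPM in the other WD mice, and 7021 CPM in the miR-202 arms, against 4187 to 4487 CPM. No member, taken alone, had a mouse that stood as far from its group. The part of these differences in the values of the members was not tested, but without M2W the log2 fold change of miR-146a-5p was 0.64 and without TN2 that of miR-155-5p was 0.68.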

How the results depend on the processing

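The log2 fold change of each tested member stayed above 0 in the alternatives tried, 19 for miR-146a-5p and miR-21-5p and 18 for miR-146b-5p and miR-155-5p, which could not be tested when 10 counts were required in every mouse. No alternative gave an adjusted p under 0.05 for a member. Leaving out each mouse in turn gave 0.64 (without M2W) to 1.03 (without M3W) for miR-146a-5p, 0.31 (without M2W) to 0.81 (without M3W) for miR-146b-5p, 0.23 (without M1N) to 0.68 (without TN2) for miR-155-5p and 0.17 (without M5W) to 0.37 (without M1N) for miR-21-5p. The count of members called was 0 at an adjusted p under 0.05 and 2 by the unadjusted criteria. By those criteria 33 of 418 class entries (7.89%) were higher and 30 (7.18%) lower in WD mice. miR-146a-5p met those criteria in 19 of 19 alternatives, miR-146b-5p in 9 of 18, miR-155-5p in 3 of 18 and miR-21-5p in 0 of 19, so that the count by them lay between 1 and 3. It was 3, with miR-155-5p, against M1N and M2N alone, with the replicate block and without TN2, and 1 against TN1 and TN2 alone, in DESeq2 and limma-voom and without M2W, among others. The class background moved too. Against M1N and M2N alone 67 of 418 class entries were higher and 79 lower, and against TN1 and TN2 alone 21 and 28. For the other alternatives the class numbers are not given here, so these member counts are no result about the families. With the number in the names as a replicate block (M1 and M2 mice only) the values were 1.14, 1.13, 0.98 and 0.08 for miR-146a-5p, miR-146b-5p, miR-155-5p and miR-21-5p, and without the block in the same mice 1.13, 1.14, 0.93 and 0.08, with 0 members called. What the number means is not stated, and the mice are different animals, so they were not treated as pairs. Deviations from the group means correlated at -0.07 for M1 and 0.26 for M2. So few pairs cannot decide whether the number links the mice. Column totals in place of TMM factors moved the median of all small RNAs by 0.06. Depth limits miR-155-5p and both 3p arms, and 4 mice a group limit all members.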
